A study of Mus musculus with 4 samples.

Results

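The extracellular and membrane metalloproteinases and their inhibitors were followed in epithelial cells of the embryonic hair peg. The set comprised every gene whose symbol names a matrix metalloproteinase (Mmp), an Adam protease, an Adamts protease or a tissue inhibitor of metalloproteinases (Timp), whatever its level, and it held 79 of the 23361 genes in the expression table. Of these, 23 were Mmp genes, 33 Adam genes, 19 Adamts genes and 4 Timp genes.

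The hair peg is the stage at which the hair follicle bud has grown down into the dermis. Cells were sorted from back skin of E17.5 mouse embryos carrying Rosa-stop-tdTomato and K14-H2BGFP, a nuclear green reporter driven by the keratin 14 promoter, together with either Nfatc1-CreER or Shh-CreER, drug-inducible recombinases placed under the Nfatc1 or the Shh gene. Pregnant mothers of both genotypes were given 1 dose of tamoxifen at E15.5. The sort kept cells that were red and green, so that each population also holds the descendants of cells labelled over the days before sorting. Nfatc1+ cells mark the upper hair peg, and the study compared them with Shh+ cells of the same stage by RNA-seq in 2 libraries per population. How many embryos went into a library was not given in the sources used here, so the p-values measure the spread between libraries, which may be technical.

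The populations were prepared differently. Skin for the Nfatc1+ sort was digested whole in 0.25% trypsin for 16 min at 37°C. Skin for the Shh+ sort went through 1 h of dispase (0.4 mg/ml) and lost its epidermis before 10 min in the same trypsin, so that placodes and hair germs were left out. Population and preparation therefore cannot be told apart in any difference below. Levels are given as FPKM, fragments counted per kilobase of transcript and scaled to the size of the library. In bulk libraries fewer cells of a type and less RNA per cell cannot be told apart.

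The genes that drive the recombinases followed the labels. Nfatc1 stood at 112 and 116 FPKM in the Nfatc1+ libraries and at 25.3 and 20.1 in the Shh+ libraries, and Shh stood at 10.5 and 11.7 against 144 and 145. All 5 epithelial markers were abundant, and they summed to 6255 and 6205 FPKM in the Nfatc1+ libraries and to 4002 and 4027 FPKM in the Shh+ libraries. Of these, Krt5, Cdh1 and Trp63 were called higher in Nfatc1+ cells (log2 fold changes -0.83, -0.93 and -0.38), while Krt14, which lay between 1030.0 and 1232 FPKM, and Epcam were not called. The part of this difference in the members' values was not tested. Relative to the deepest library, Nfatc1+ replicate 1, sequencing depth read from the low values was 0.927 for Nfatc1+ replicate 2 and Shh+ replicate 1, and 0.575 for Shh+ replicate 2, whose low genes are therefore the least precise.

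Metalloproteinases of these families cut proteins at a zinc ion held by the enzyme. Mmps cut collagens, laminins and other matrix proteins and activate one another. Adams are mostly anchored in the membrane and release the outer parts of receptors, growth factors and adhesion molecules, while Adamts enzymes are secreted, bind matrix and trim procollagens and large proteoglycans such as versican. Timps are small secreted proteins that block the active site, and the 4 differ in the enzymes they prefer: Timp3 is held in the matrix and acts on several Adams and Adamts enzymes as well as on Mmps, whereas Timp2 also takes part in the activation of Mmp2 by Mmp14. In skin, these enzymes are known for remodelling of the basement membrane and the dermis around growing follicles.

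The zinc site is written in the genes themselves and shows what the families share. The coding sequence of each member, taken as its longest complete GENCODE vM21 reading frame on GRCm38, was searched for His-Glu-x-x-His-x-x-Gly-x-x-His, a stretch of 11 codons or 33 bases in which the histidines bind zinc and the glutamate takes part in catalysis. A form with asparagine in place of the glycine was also accepted. One form or the other was found in 61 of the 79 members: all 23 Mmps, 20 of 33 Adams and 18 of 19 Adamts genes. The 4 Timps, which are not enzymes, lacked both forms, as did 13 Adams and Adamts8, which is grouped here with the aggrecanases and versicanases. Other residues at the glycine position were not searched, so a missing match does not show that an enzyme lacks a zinc site. Sites of selected members described below are given 5′ to 3′, and that of Adamts19 is not reported here. Codons of the histidines, the glutamate and the glycine or asparagine are in capitals.
Mmp2: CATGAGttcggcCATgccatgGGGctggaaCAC
Mmp9: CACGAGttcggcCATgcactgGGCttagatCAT
Mmp14: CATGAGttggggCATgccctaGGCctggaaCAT
Adam10: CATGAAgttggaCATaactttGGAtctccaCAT
Adam9: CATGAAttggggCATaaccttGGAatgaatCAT
Adamts3: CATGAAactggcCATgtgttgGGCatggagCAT
Adamts9: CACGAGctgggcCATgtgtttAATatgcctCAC
Adamts15: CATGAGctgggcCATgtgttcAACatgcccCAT
Adamts20: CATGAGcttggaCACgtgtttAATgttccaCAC

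These sites lie in exon 8 of Mmp2 (chr8:92839279-92839311, plus strand), exon 8 of Mmp9 (chr2:164951133-164951165, plus strand), exon 5 of Mmp14 (chr14:54437627-54437659, plus strand) and exon 11 of Adam9 (chr8:24990326-24990358, minus strand). In the others an intron splits the site. That of Adam10 begins in exon 9 and ends in exon 10 (chr9:70754296-70761585 with the intron, plus strand), those of Adamts3 (chr5:89707433-89707818), Adamts9 (chr6:92905285-92908493) and Adamts20 (chr15:94353678-94355296) span exons 8 and 9 on the minus strand, and that of Adamts15 (chr9:30911255-30911690, minus strand) spans exons 2 and 3. The asparagine form occurred in 5 members, Adamts1, Adamts4, Adamts9, Adamts15 and Adamts20, all among the enzymes known to cut aggrecan or versican. It did not go with direction: of these 5, Adamts9 and Adamts1 were higher in Nfatc1+ cells, Adamts15 and Adamts20 were higher in Shh+ cells and Adamts4 passed the test in neither direction.

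Most of the set was silent or nearly so in these cells. In all 4 libraries 22 members were listed at 0, of which 14 were Adams known mainly from the germ line and 8 were Mmps (Mmp1a, Mmp1b, Mmp3, Mmp7, Mmp10, Mmp12, Mmp20 and Mmp21). A further 26 members had means over the 4 libraries of 0.00722 to 0.444 FPKM, under the minimum of 0.5 FPKM set for testing, which left 31 members. None of the 4 collagenase genes reached it. The 10 Mmp genes that stand side by side on chromosome 9, between 7272514 and 7699585 (GRCm38), from Mmp13 to Mmp7, gave no tested member, 7 of them were at 0 throughout, and the highest value of any was 0.124 FPKM. Adam9 was the single tested gene of the 5 Adams clustered on chromosome 8 (Adam18, Adam3, Adam5, Adam32 and Adam9).

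Among the 31 tested members, 10 were higher in Nfatc1+ cells, 8 were higher in Shh+ cells and 13 passed the test in neither direction, at an adjusted p under 0.05 over all 12750 genes tested (limma, Benjamini-Hochberg). Across all tested genes 16.6% were higher in Nfatc1+ cells and 14.9% in Shh+ cells, 31.4% together, against 58.1% of the tested members. With a change of at least 2-fold on the log2(FPKM + 0.5) scale in addition, 5 members were higher in Nfatc1+ cells and 4 in Shh+ cells, 29.0% of those tested. The corresponding share of all tested genes was 10.4%, made up of 5.72% in the Nfatc1+ direction and 4.7% in the Shh+ direction. The median log2 fold change, Shh+ over Nfatc1+, was -0.24 over the members and 0.0018 over all tested genes, and the median size of the change was 0.42 against 0.24. The counts depended on the number of libraries: without any 1 library, 6 or 7 members were called higher in Nfatc1+ cells, and 5 were called higher in Shh+ cells without either Shh+ library. Of the 9 members past 2-fold, 8 passed the test with any library left out. The other, Adamts3, passed it without either Nfatc1+ library, but without either Shh+ library its mean fell below the minimum level and it was not tested.

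**Figure D1:**
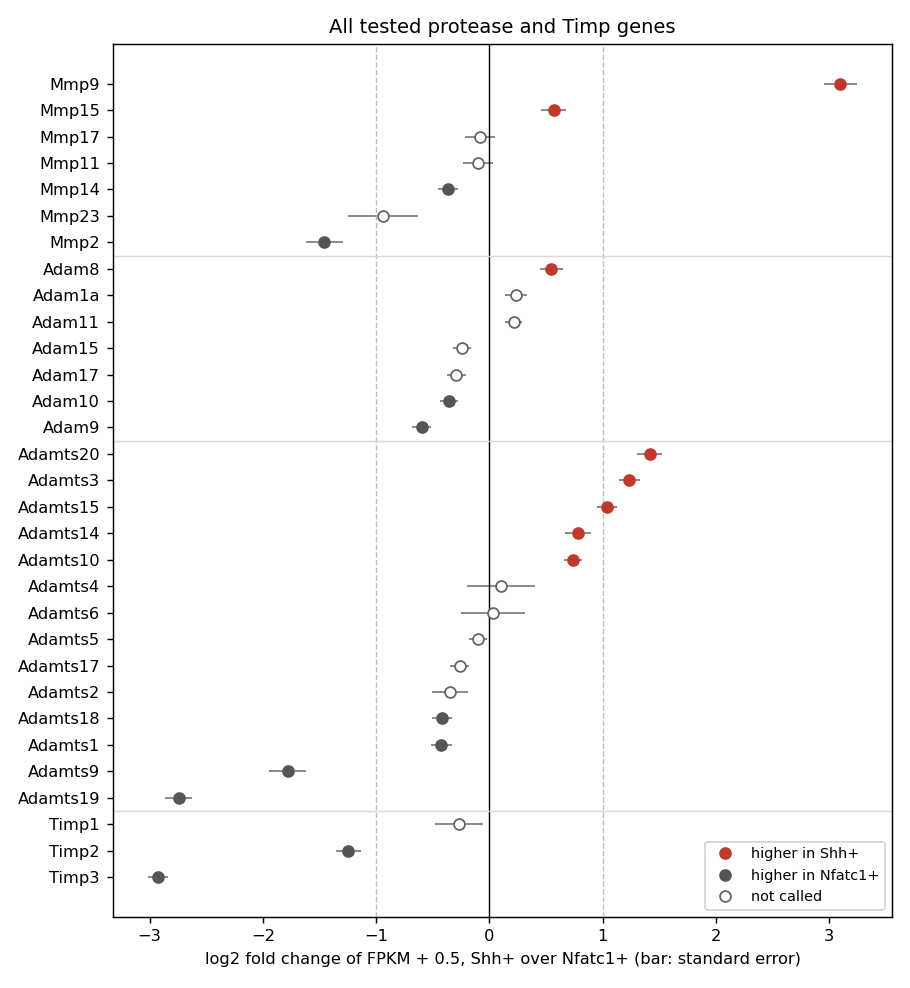
Change from Nfatc1+ to Shh+ cells in log2(FPKM + 0.5) on the horizontal axis, for each of the 31 tested members, grouped from top to bottom into Mmp, Adam, Adamts and Timp genes. Points are limma estimates, bars their standard errors, dashed lines a 2-fold change, and open points the 13 members that were not called. The extremes are Timp3 at -2.93 and Mmp9 at 3.10.

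The summed level of the inhibitors differed more than that of any protease family. Summed over the 4 Timp genes, FPKM was 128 and 130 in the Nfatc1+ libraries and 23.8 and 25.0 in the Shh+ libraries. Timp3 (chr10:86300372-86349506) made up most of the sum in the Nfatc1+ libraries, at 101 and 98.9 FPKM, and stood at 12.1 and 13.4 FPKM in the Shh+ libraries. The groups were far apart and each pair of replicates was close, so that the mean was 7.85-fold higher in Nfatc1+ cells (log2 fold change -2.93 ± 0.09 SE, adjusted p = 0.000386). Syn3, the synapsin gene within which Timp3 lies on the opposite strand, stood at 0.709 to 1.49 FPKM and was the higher in Shh+ cells.

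Timp2 (chr11:118301069-118355740) was at 25.2 and 30.0 FPKM in Nfatc1+ cells and at 11.4 and 11.2 FPKM in Shh+ cells. It fell with Timp3, by 1.25 on the log2 scale (SE 0.11, adjusted p = 0.00258), from Nfatc1+ to Shh+ cells. Cep295nl, which overlaps Timp2 on the same strand, had no listed value. Timp1, the inducible inhibitor, was low throughout, at 0.828 and 0.382 FPKM against 0.383 and 0.412 FPKM. Its groups overlapped and it passed the test in neither direction (log2 fold change -0.27 ± 0.21 SE, adjusted p = 0.380), although without Nfatc1+ replicate 2 it was higher in Nfatc1+ cells (-0.57, adjusted p = 0.0459). Timp4 was listed at 0.753 and 0.517 FPKM in Nfatc1+ cells and at 0 in both Shh+ libraries. It lay below the minimum level and was called only with no minimum applied (adjusted p = 0.00882). Mmp19, also below that level, was called higher in Nfatc1+ cells in the same fit (-0.40, adjusted p = 0.0417). Syn2, which overlaps Timp4 on the opposite strand, moved the same way, at 2.53 and 2.90 FPKM against 0.0753 and 0.0810 FPKM, and whether the counting used strand was not given in the sources used here.

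**Figure D2:**
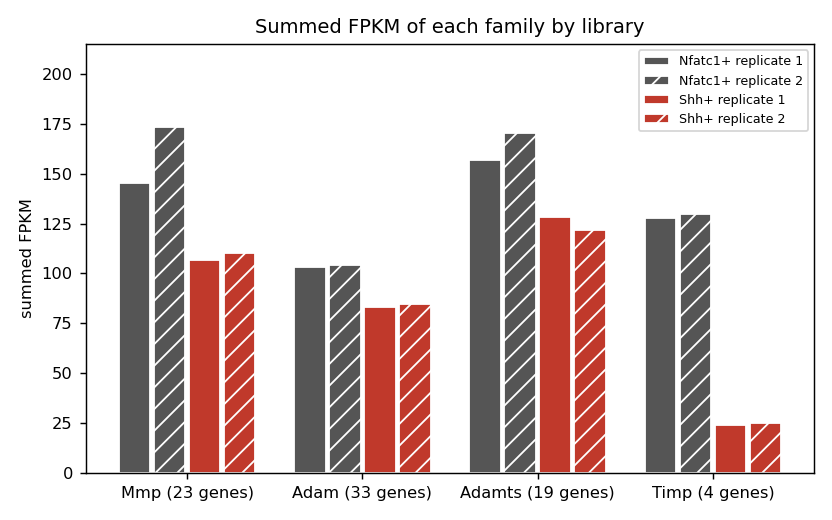
Summed FPKM (vertical axis, from 0) of all genes of each family in each library, with Nfatc1+ libraries in grey, Shh+ libraries in red and replicate 2 hatched. The Timp sum is 128 and 130 in the Nfatc1+ libraries and 23.8 and 25.0 in the Shh+ libraries, a wider gap than in the 3 protease families.

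The gelatinases, which degrade denatured collagen and type IV collagen of basement membranes, went opposite ways. Mmp9 (chr2:164940780-164955850) was close to 0 in Nfatc1+ cells, at 0.0289 and 0.0935 FPKM, and reached 3.77 and 4.92 FPKM in Shh+ cells. It had the largest change of any tested member, 3.10 ± 0.15 SE on the log2(FPKM + 0.5) scale (adjusted p = 0.000689). This rank depends on the pseudocount: with a pseudocount of 1 the change of Mmp9 was 2.32. Over the alternative settings Timp3 lay between -3.00 and -2.85 and Adamts19 between -2.89 and -2.60, larger in size than that. The ratio of the means was 71.0, a figure that rests on values near 0 and has no counting interval because read counts were not used here.

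Mmp2 (chr8:92827291-92853420) was abundant, at 49.5 and 67.3 FPKM in Nfatc1+ cells and 20.8 and 20.6 FPKM in Shh+ cells. Its mean was 2.82-fold higher in Nfatc1+ cells (log2 fold change -1.46 ± 0.16 SE, adjusted p = 0.00485). In Shh+ cells, where Mmp9 rose, Mmp2 still stood at the higher FPKM of the pair.

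The membrane-type Mmps sit on the cell surface and can activate other Mmps. Mmp14 (chr14:54431612-54445364), the activator of pro-Mmp2, had the highest level of all the Mmps, at 78.4 and 84.6 FPKM in Nfatc1+ cells and 60.8 and 65.4 FPKM in Shh+ cells. The difference was 1.29-fold in favor of Nfatc1+ cells (log2 fold change -0.37 ± 0.09 SE, adjusted p = 0.0385), and the call was lost without any 1 library (adjusted p from 0.0795 to 0.171) or with no minimum level (0.0542). Mmp15 was higher in Shh+ cells, at 8.69 and 7.66 FPKM against 4.95 and 5.77 FPKM (0.57 ± 0.11 SE, adjusted p = 0.0248). That call was lost without Nfatc1+ replicate 1 or either Shh+ library (adjusted p = 0.0997, 0.0952 and 0.0533). Mmp17, anchored by a lipid, lay between 1.03 and 1.39 FPKM with overlapping groups.

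Mmp11, a stromelysin that is activated inside the cell, was at 9.40 and 12.0 FPKM in Nfatc1+ cells and at 9.96 and 9.82 FPKM in Shh+ cells. The Nfatc1+ replicates bracketed the Shh+ values (log2 fold change -0.10 ± 0.13 SE, adjusted p = 0.616). Chchd10, which overlaps Mmp11 on the opposite strand, was at 8.41 and 6.58 FPKM against 1.77 and 1.90 FPKM. Mmp23 was at 1.08 and 1.16 FPKM against 0.656 and 0.117 FPKM. The Shh+ replicates lay far apart, and the gene passed the test only without Shh+ replicate 1 (-1.39, adjusted p = 0.00958) and narrowly under limma with trend and robust settings (adjusted p = 0.0489).

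**Figure D3:**
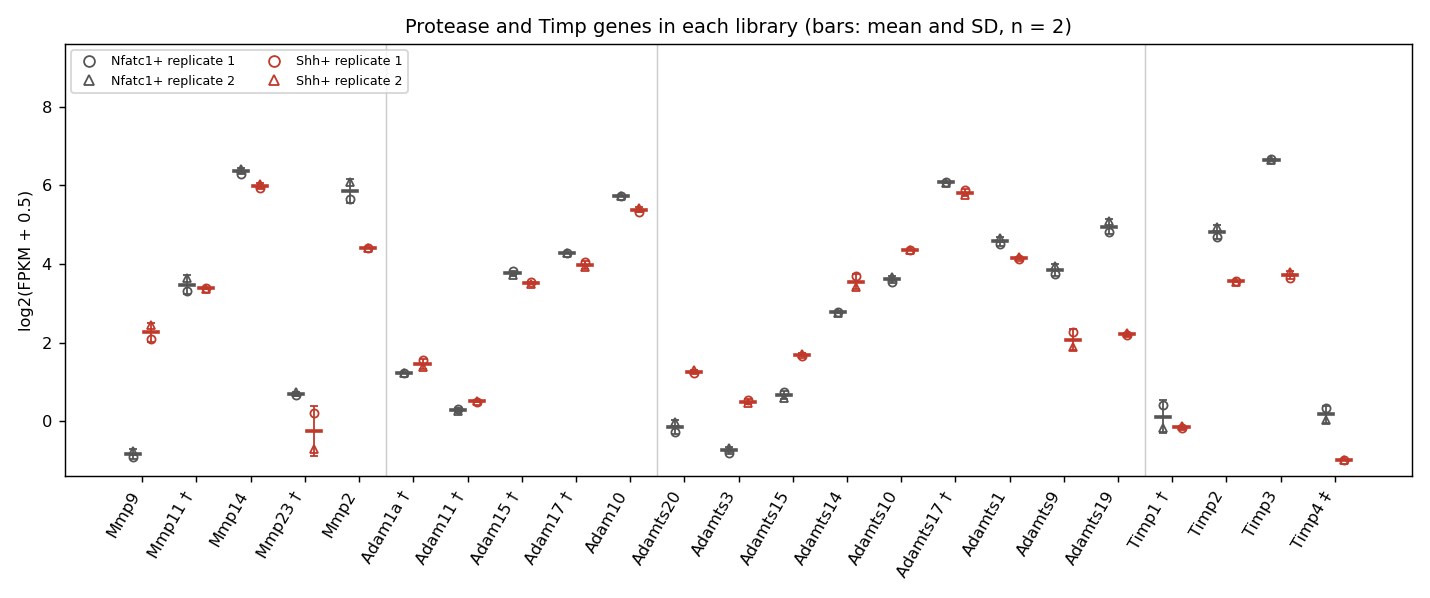
Level of 23 members in each library as log2(FPKM + 0.5), with Nfatc1+ libraries in grey, Shh+ libraries in red, circles for replicate 1 and triangles for replicate 2. Horizontal bars are means and error bars SD (n = 2), a dagger marks members not called and a double dagger Timp4, which was not tested. Mmp9, Adamts20 and Adamts3 rise from near the floor in Shh+ cells, whereas Timp3 and Adamts19 are abundant in Nfatc1+ cells.

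No tested Adam reached a 2-fold difference. Adam10 (chr9:70678997-70780229), the sheddase that cuts Notch receptors and E-cadherin, was the most abundant of them, at 53.0 and 52.8 FPKM in Nfatc1+ cells and 39.8 and 42.6 FPKM in Shh+ cells. It was 1.28-fold higher in Nfatc1+ cells (log2 fold change -0.36 ± 0.08 SE, adjusted p = 0.0318), and this call was lost without any 1 library (adjusted p from 0.0666 to 0.133). Adam9, at 11.9 and 12.3 FPKM against 7.44 and 8.19 FPKM, was 1.55-fold higher in Nfatc1+ cells (-0.60 ± 0.09 SE, adjusted p = 0.00959) but was not called without Nfatc1+ replicate 2 (0.0555).

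Adam17, which releases Tnf and ligands of the Egf receptor, was at 18.9 and 18.8 FPKM in Nfatc1+ cells and 16.1 and 14.6 FPKM in Shh+ cells. Its groups did not overlap but it was not called (log2 fold change -0.29 ± 0.09 SE, adjusted p = 0.0657), and with an intensity trend in the variance it was (0.0322). Iah1, which overlaps Adam17 on the opposite strand, was at 36.2 and 30.8 FPKM against 21.2 and 18.2 FPKM. Adam15 was at 13.5 and 12.7 FPKM against 11.2 and 10.8 FPKM (-0.24 ± 0.08 SE, adjusted p = 0.0842). Adam8, a protease best known from immune cells, was the single Adam called higher in Shh+ cells, at 3.20 and 3.12 FPKM against 1.83 and 2.197 FPKM (0.55 ± 0.10 SE, adjusted p = 0.0199). Its call was lost without Nfatc1+ replicate 1 or either Shh+ library (adjusted p from 0.0734 to 0.0835).

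Of the 3 Adams of somatic tissues without a working catalytic site, only Adam11 reached the minimum level, at 0.748 and 0.695 FPKM against 0.901 and 0.938 FPKM, with no call (adjusted p = 0.0986). Of the 21 germ-line Adams, 1 was tested. This was Adam1a, at 1.85 and 1.84 FPKM in Nfatc1+ cells and 2.44 and 2.09 FPKM in Shh+ cells, with no call (adjusted p = 0.129). It lies near its copy Adam1b and its annotation overlaps Mapkapk5 on the same strand, so reads may have been split or shared among them and the value is uncertain.

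The Adamts family was split, with 4 of 14 tested members called toward Nfatc1+, that is, higher there, and 5 toward Shh+. The share called was 64.3%, beside 31.4% of all tested genes (16.6% and 14.9% by direction), described without a test. Adamts19, a poorly characterized member, was at 27.6 and 33.7 FPKM in Nfatc1+ cells and at 4.03 and 4.21 FPKM in Shh+ cells. The 7.43-fold difference (log2 fold change -2.74 ± 0.12 SE, adjusted p = 0.00062) was the largest of the proteases in the Nfatc1+ direction. Its nearest relative, Adamts17, had the highest level of the family in both populations and differed little, at 67.7 and 66.7 FPKM against 58.3 and 53.7 FPKM (-0.26 ± 0.08 SE, adjusted p = 0.0767). It was called under limma with a trend (0.0198).

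The aggrecanases and versicanases, 6 of which were tested, were split. Adamts9 (chr6:92772699-92943492), a versican-cutting enzyme, was at 12.9 and 15.1 FPKM in Nfatc1+ cells and 4.29 and 3.18 FPKM in Shh+ cells, 3.75-fold lower in the latter (log2 fold change -1.78 ± 0.16 SE, adjusted p = 0.00286). Adamts20, its closest paralog and the gene mutated in belted mice, went the other way, at 0.324 and 0.483 FPKM in Nfatc1+ cells and 1.86 and 1.95 FPKM in Shh+ cells (1.42 ± 0.11 SE, adjusted p = 0.00203). In FPKM, Adamts9 was above Adamts20 in every library. The antisense gene 9530026P05Rik, which overlaps Adamts9, was at 0.206 and 0.555 FPKM in Nfatc1+ cells and at 0 in both Shh+ libraries.

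Adamts15, a further versicanase, was at 1.16 and 0.998 FPKM against 2.69 and 2.80 FPKM, 2.54-fold higher in Shh+ cells (log2 fold change 1.04 ± 0.09 SE, adjusted p = 0.00244). Adamts1 was higher in Nfatc1+ cells, at 22.1 and 24.7 FPKM against 16.96 and 17.62 FPKM (-0.42 ± 0.09 SE, adjusted p = 0.0292), and lost its call without any 1 library. Adamts4 and Adamts5, the classical aggrecanases of cartilage, were between 0.318 and 0.978 FPKM and were not called. Adamts1 and Adamts5 are neighbors on chromosome 16, and differed widely in level.

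The procollagen N-propeptidases Adamts2, Adamts3 and Adamts14 trim the amino end of fibrillar procollagens. Of these 3, 2 were called higher in Shh+ cells, beside 14.9% of all tested genes. Adamts14 was at 6.398 and 6.244 FPKM in Nfatc1+ cells and 12.4 and 10.2 FPKM in Shh+ cells (a log2 fold change of 0.78 ± 0.11 SE, adjusted p = 0.0103; 0.0516 without Nfatc1+ replicate 2). Adamts3, which also processes Vegfc, was low but clearly separated, at 0.0695 and 0.125 FPKM against 0.950 and 0.866 FPKM (1.24 ± 0.09 SE, adjusted p = 0.00158). Adamts2 was at 0.889 and 1.35 FPKM against 0.803 and 0.710 FPKM and was not called (adjusted p = 0.166).

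Adamts10, which binds fibrillin, was higher in Shh+ cells, at 19.97 and 19.87 FPKM against 11.2 and 12.2 FPKM (log2 fold change 0.74 ± 0.08 SE, adjusted p = 0.00469). Its relative Adamts6 lay between 0.314 and 0.777 FPKM, with more spread within each population than between them. Adamts18 was modestly higher in Nfatc1+ cells, at 4.38 and 4.91 FPKM against 3.36 and 3.31 FPKM (-0.42 ± 0.09 SE, adjusted p = 0.0269), a call that was lost without any 1 library.

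Markers of other skin cells were examined because fibroblasts express many of these genes. A list of 8 dermal fibroblast genes summed to 402 and 683 FPKM in the Nfatc1+ libraries and 630 and 743 FPKM in the Shh+ libraries. Decorin (Dcn) was the single one called, at 40.3 and 57.7 FPKM against 326 and 425 FPKM, and without it the sums were 361, 625, 304 and 318 FPKM. No defining marker was at 0, and Col1a1 was at 77.9, 165, 71.6 and 52.7 FPKM in the same order.

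All 8 fibroblast markers were higher in Nfatc1+ replicate 2 than in replicate 1, Col1a1 by 2.11-fold. Over the same libraries Mmp2 was 1.36-fold, Timp2 1.19-fold, Adamts9 1.17-fold and Mmp14 1.08-fold higher in replicate 2, whereas Timp3 had a ratio of 0.978. Without Nfatc1+ replicate 2, log2 fold changes were -1.24 for Mmp2, -1.12 for Timp2, -2.94 for Timp3, -1.67 for Adamts9 and -2.60 for Adamts19. Mmp14, Adam10, Adam9, Adamts1 and Adamts18 lost their calls in that fit, as given above. The remaining Nfatc1+ library also holds fibroblast transcripts, Col1a1 among them, and the part of fibroblast RNA in the members' differences was not tested.

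Melanocyte genes also varied between libraries, with 8 markers summing to 30.6 and 64.1 FPKM in Nfatc1+ cells and 7.89 and 41.5 FPKM in Shh+ cells. Every one of these markers was higher in replicate 2 than in replicate 1 in both populations. Mitf was the single one called, at 9.74 and 12.3 FPKM against 0.860 and 1.29 FPKM (log2 fold change -2.88, adjusted p = 0.00121). The part of melanocyte RNA in the members' differences was not tested. Immune markers, 5 of which were in the table, summed to 3.36 to 8.33 FPKM, with Ptprc at 0 to 0.056 FPKM and Cd68 at 2.85 to 6.23 FPKM. The 5 endothelial markers summed to 3.29 to 4.56 FPKM, with Pecam1 at 0.919 to 1.65 FPKM, and no tested gene of either list was called. Immediate early genes respond within minutes to hours to handling or signals. Of 18 tested, 12 were higher in Nfatc1+ cells and 0 in Shh+ cells, beside 16.6% and 14.9% of all tested genes. The immediate early list summed to 3277 and 3658 FPKM against 1556 and 1643 FPKM, and its part in the members' differences was not tested.

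**Figure D4:**
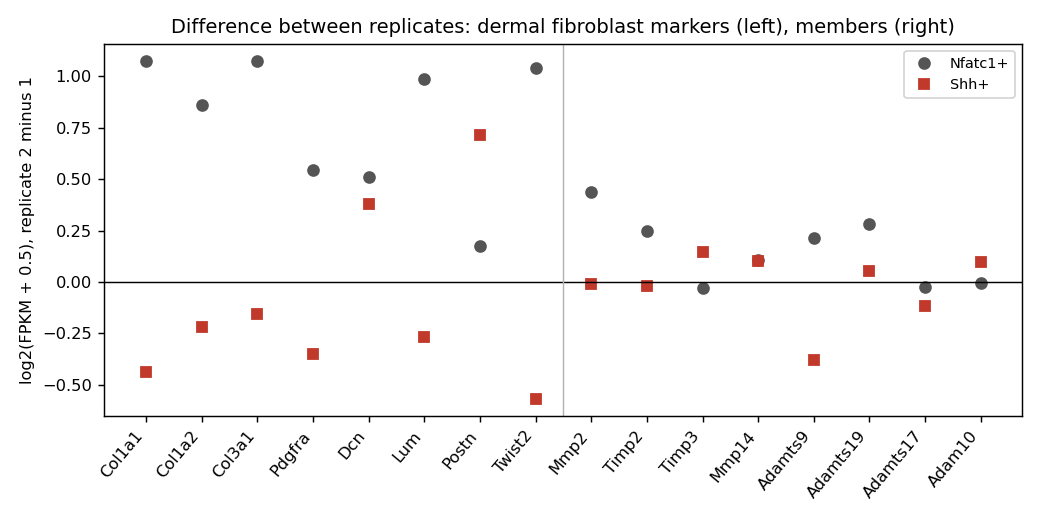
Difference between replicate 2 and replicate 1 within each population, in log2(FPKM + 0.5), for the 8 dermal fibroblast markers to the left of the line and 8 members to the right. Grey circles are Nfatc1+ and red squares Shh+ libraries. In Nfatc1+ cells Col1a1 differs by 1.07 and Mmp2 by 0.44, while Timp3 differs by -0.03.

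The partners and substrates of these enzymes were counted over 5 lists holding 110 genes, of which 86 were tested, with 30 called toward Nfatc1+ and 17 toward Shh+, 54.7% together beside 31.4% of all tested genes (16.6% and 14.9% by direction). By list, the share called was 44.4% of the activators and partners, 58.8% of the other extracellular proteases, 55.6% of the Adamts-like proteins and inhibitors, 66.7% of the shed substrates and 47.6% of the matrix substrates, described here without a test. Among 18 tested activators and partners, 5 were called toward Nfatc1+ and 3 toward Shh+. Of the 6 tetraspanins known as Adam10 partners, 2 were called, both higher in Shh+ cells, Tspan14, Tspan17 and Tspan33 were not called and Tspan10 was below the minimum level. Tspan15 was at 0.674 and 0.620 FPKM in Nfatc1+ cells and 7.92 and 6.86 FPKM in Shh+ cells (2.78 ± 0.10 SE, adjusted p = 0.000502), and Tspan5 at 18.1 and 18.2 against 50.1 and 53.4 FPKM (1.48, adjusted p = 0.000804). Rhbdf2, an iRhom that matures Adam17, was at 17.1 and 24.8 FPKM in Nfatc1+ cells and 6.44 and 6.01 FPKM in Shh+ cells (-1.65, adjusted p = 0.00539). These 3, named for having the largest changes in the list, differed by more than Adam10 and Adam17 did. Rhbdf1, the other iRhom of the list, was at 25.6 and 26.7 FPKM in Nfatc1+ cells and 31.2 and 32.7 FPKM in Shh+ cells. It leaned the other way from Rhbdf2 and was not called (0.28, adjusted p = 0.0553).

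Of 21 tested substrates shed by Adam10 or Adam17, 8 were called toward Nfatc1+ and 6 toward Shh+. Tnf, the cytokine that gave Adam17 its first name, was at 1.65 and 4.52 FPKM in Nfatc1+ cells and 22.5 and 35.9 FPKM in Shh+ cells (a log2 fold change of 3.14 ± 0.47 SE, adjusted p = 0.0108). The hyaluronan receptor Cd44 was at 186 and 181 FPKM against 26.6 and 28.7 FPKM (-2.71 ± 0.08 SE, adjusted p = 0.000386), and the Notch ligand Dll1 also fell, by 1.59 on the log2 scale. Members of 1 list thus changed in both directions.

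Among 21 tested matrix substrates, 8 were called toward Nfatc1+ and 2 toward Shh+. Fibronectin (Fn1) was at 44.1 and 54.1 FPKM in Nfatc1+ cells and 332 and 305 FPKM in Shh+ cells (2.69 ± 0.13 SE, adjusted p = 0.000696). Brevican (Bcan), a proteoglycan cut by Adamts4 and Adamts5, was at 8.399 and 9.345 FPKM against 0 and 0.0592 FPKM (-4.15, adjusted p = 0.000386), and fibrillin 2 (Fbn2) at 11.1 and 13.5 against 1.66 and 1.78 FPKM (-2.52, adjusted p = 0.000689). Versican, the substrate of Adamts9 and Adamts20, was at 57.0 and 56.1 FPKM in Nfatc1+ cells and 21.3 and 25.9 FPKM in Shh+ cells (-1.25, adjusted p = 0.00308), lower together with Adamts9. Versican was singled out after its values were seen.

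Of 17 tested other extracellular proteases, 7 were called toward Nfatc1+ and 3 toward Shh+. The membrane metallopeptidase Mme rose to 37.7 and 29.3 FPKM in Shh+ cells from 5.88 and 4.96 FPKM (log2 fold change 2.51, adjusted p = 0.00115), and Tll1, a tolloid-like procollagen C-proteinase, was higher as well (1.27, adjusted p = 0.00348). The serine protease Tmprss4 went the other way (-2.03, adjusted p = 0.00236). So did Bmp1, a further procollagen C-proteinase of this list (-1.18, adjusted p = 0.00113). Bmp1 was at 66.5 and 64.8 FPKM in Nfatc1+ cells and 28.6 and 28.8 FPKM in Shh+ cells. Tll1 was lower in level, at 5.16 and 6.45 FPKM against 14.2 and 15.0 FPKM. Of 9 tested genes in the list of Adamts-like proteins, inhibitors and related genes, 2 were called toward Nfatc1+ and 3 toward Shh+. Those toward Nfatc1+ were Adamtsl1 (-1.26, adjusted p = 0.00241) and Adamtsl5 (-0.88, adjusted p = 0.0174). Those toward Shh+ were Adamtsl2 (1.42, adjusted p = 0.00658) and the protease inhibitors Spint1 (0.78, adjusted p = 0.00735) and Spint2 (0.48, adjusted p = 0.0266).

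**Figure D5:**
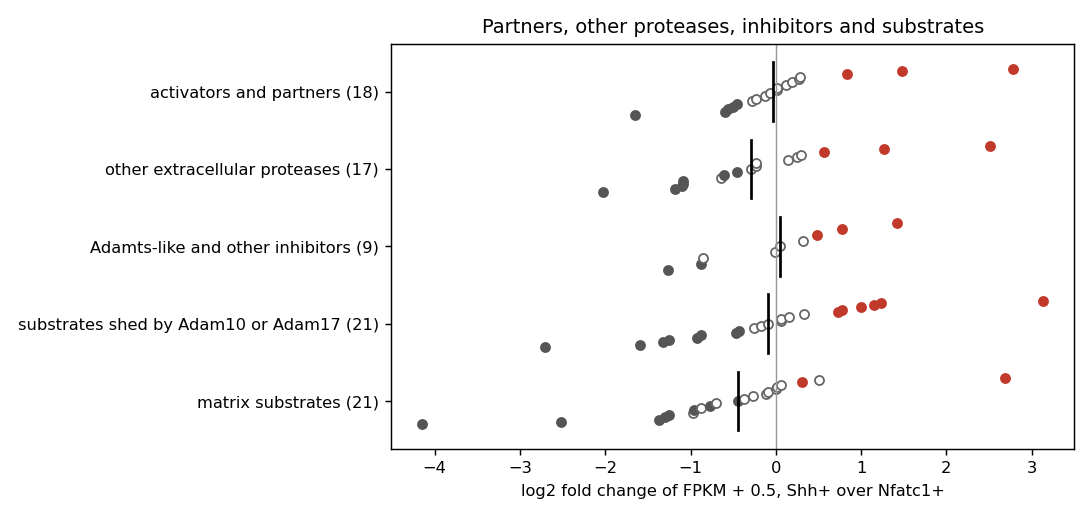
Change from Nfatc1+ to Shh+ cells in log2(FPKM + 0.5) on the horizontal axis, for each tested gene in the 5 lists of partners, other proteases, inhibitors and substrates, with the number of tested genes in parentheses. Red points were called higher in Shh+ cells, grey points higher in Nfatc1+ cells, open points were not called, and vertical bars are list medians. The widest ranges are in the matrix substrates, from Bcan at -4.15 to Fn1 at 2.69, and in the shed substrates, from Cd44 at -2.71 to Tnf at 3.14.

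Promoter sequence was available from RefSeq (GRCm38.p6) for 49 members, 20 of them tested, with 21 start sites. In all, 5 short motifs were searched on both strands of the 250 bases before each start. The GC box GGGCGG was found in 17 of the 21 windows, beside 58.69% of the promoters of tested genes and 32.74% of all promoters. The Ets motif AGGAAG was in 5 (Adam10, Adam17, Mmp14, Timp1 and Timp3), beside 27.37% of the promoters of tested genes, the TATA box TATAAA in 1 (Adamts1), beside 6.251%, and the AP-1 motif TGAGTCA and the Tcf/Lef motif CTTTGAT in 0, beside 2.947% and 2.158%. The windows of Mmp14, the most abundant Mmp, and of Adamts3, the member past 2-fold with an entry whose window overlaps no annotated gene, are given 5′ to 3′ with GC boxes in capitals, on the plus strand for Mmp14 (chr14:54431348-54431597) and the minus strand for Adamts3 (chr5:89883335-89883584).
Mmp14: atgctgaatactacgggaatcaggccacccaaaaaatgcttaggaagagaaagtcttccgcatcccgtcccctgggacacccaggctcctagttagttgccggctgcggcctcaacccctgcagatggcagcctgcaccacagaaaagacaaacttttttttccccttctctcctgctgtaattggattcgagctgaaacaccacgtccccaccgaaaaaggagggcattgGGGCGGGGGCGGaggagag
Adamts3: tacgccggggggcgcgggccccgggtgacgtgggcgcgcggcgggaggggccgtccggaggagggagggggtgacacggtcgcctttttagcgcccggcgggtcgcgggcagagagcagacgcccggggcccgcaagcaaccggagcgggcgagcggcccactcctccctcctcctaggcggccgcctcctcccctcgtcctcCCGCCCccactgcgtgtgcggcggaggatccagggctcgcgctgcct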

How the data were processed

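The FPKM values were used as deposited, 1 column per library, for 23361 genes. Per the study's methods and the submitters' processing notes, the authors aligned paired reads to mm10 with TopHat2 2.0.13 and obtained FPKM with Cufflinks 2.2.1. HTSeq is also listed, with its role not given in the sources used here. FPKM are not counts, so no count model was run, and strand handling was not given in the sources used here.

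The 12750 genes averaging 0.5 FPKM or more across the 4 libraries were tested on log2(FPKM + 0.5) with limma 3.58.1 in R 4.3.3, Shh+ against Nfatc1+, 2 libraries each, with Benjamini-Hochberg adjustment over all of them and calls at 0.05. A fold change on this scale understates that of low genes. Depth was estimated from the steps of values under 0.3 FPKM. Alternatives were other pseudocounts (0.1 and 1), level filters, scalings, variance models, a replicate block and leaving out each library.

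The members and lists were chosen with earlier results of these data known. Members with values are those called past 2-fold, those with a mean of at least 10 FPKM, the Timps and the most abundant of each role, and in the report every other tested member is also given. From the partner lists, the 3 called genes with the largest change were named. Values of versican, Rhbdf1, Bmp1, Spint1 and Spint2 were added after they were seen. Coding sites and coordinates are from GENCODE vM21 (GRCm38) and promoters from RefSeq.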

Additional observations from a re-analysis of the deposited data

How the results depend on the processing

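Of the 31 tested members, none changed direction under another pseudocount, filter, scaling or variance model. Leaving out 1 library turned the direction of 4 uncalled members, whose log2 fold changes then ranged from -0.32 (without Nfatc1+ replicate 1) to 0.53 for Adamts4, from -0.29 (likewise) to 0.28 for Adamts6, from -0.26 to 0.070 (without Nfatc1+ replicate 2) for Mmp11, and from -0.22 to 0.061 (without Shh+ replicate 2, and 0.0022 without Nfatc1+ replicate 2) for Mmp17. With 1 library left out, counts ranged from 1097 to 1165 of all genes higher in Shh+ cells (1898 with all libraries) and from 1210 to 1433 higher in Nfatc1+ cells (2111), from 5 to 7 members higher in Shh+ cells (8) and from 6 to 7 higher in Nfatc1+ cells (10). These fits rest on fewer samples, and the lone library is assumed to vary like the other population. Adding a 2-fold minimum to the adjusted p gave 599 and 729 of all genes, 4 and 5 members, 9 of the 14 called members chosen for their values, and 9 and 16 of the partner genes (17 and 30). An unadjusted p under 0.01 with a fold above 2 gave 591 and 720 genes, again 4 and 5 members, 9 members chosen for their values and 9 and 16 partner genes.

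Over all tested genes, the replicate deviations of the 2 populations had a correlation of 0.114. With 2 pairs this cannot show whether the replicate numbers pair the samples. The 8 melanocyte markers were higher in replicate 2 in both populations. With the replicate block 1719 and 1980 of all genes and 8 and 9 members were called, Adam10 being lost (adjusted p = 0.0544). With an intensity trend in limma, chosen after seeing the data, 12 members were higher in Nfatc1+ cells, Adam17 and Adamts17 being gained, and with robust settings as well 13, with Mmp23. With a pseudocount of 0.1 the log2 fold changes of the low genes Mmp9 and Adamts3 became 4.80 and 2.37, and with 1 they became 2.32 and 0.80. No scaling moved the median of all genes by over 0.1 on the log2 scale. With 2 libraries per population and no read counts, small changes and levels near the 0.5 FPKM minimum are the least certain.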
